A study of Mus musculus with 4 samples.

Results

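The immediate early and acute stress genes examined here are 39 named genes that cells switch on within a short time of a stimulus or an injury. They were taken by gene symbol from the gene count table, and all 39 were found among 41342 named genes. RNAseq was done on splenic B cells of ΔleftPAL and ΔIRIS mice, both in a 129 background and 8 to 12 weeks old, before and after 48 h of culture with 5 µg/ml lipopolysaccharide (LPS), a bacterial product that activates B cells. In the IgH 3′ regulatory region the hs1,2 enhancer is flanked on both sides by inverted repeated intervening sequences (IRIS). ΔleftPAL mice lack the hs3a enhancer, the left-side IRIS and the hs1,2 enhancer. ΔIRIS mice lack the left-side IRIS alone and keep both enhancers, with hs3a inverted. In both genotypes the left-side IRIS is thus absent and the palindrome of that region is broken, and wt libraries were not analysed here. Resting cells were lysed fresh after a density gradient and depletion of CD43+ cells, whereas LPS-activated cells were cultured and then passed over a gradient again. LPS and 48 h of culture therefore cannot be told apart, since no library of cells cultured without LPS was analysed. Each of the 4 groups was 1 library, which the labels give as B cells pooled from 4 animals per genotype. The paper's methods and a figure legend describe the pools otherwise. With 1 library per group, no difference below has a check within its group, and no p-value is given for a single gene.

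Immediate early genes are transcribed within minutes of a signal, from promoters that are already poised and without any need for new protein. Most of their transcripts are short-lived, and several members, such as the Zfp36 proteins and the Dusp phosphatases, end the response that induced them. In B cells the Fos, Egr and Nr4a genes are known targets of antigen receptor signalling through MAP kinases and calcium. The heat shock proteins, Ppp1r15a, Atf3 and the Gadd45 genes are better known from stress, and many members also answer to warming, shear and other handling of cells.

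The upstream sequence of these genes is shown because MAP kinase, calcium and heat signals act on short elements there: serum response factor on CArG boxes, CREB and ATF proteins on the cAMP response element (CRE) and on TGACG, a part of it, and heat shock factor on inverted GAA repeats. RefSeq promoter entries (build GRCm38.p6, 250 bases before to 50 bases after the start site) were matched for 32 members. The other 7, Egr1, Egr3, Ier2, Rgs1, Cd69, Sik1 and Zfp36l2, had no entry and were not searched. Elements outside this window were not searched in any member. The stretches below run 5′ to 3′ on the gene's strand and end at the start site, or where the count table's own gene record begins, and span up to 180 bases. Capitals mark TGACG, read on either strand, in Fos (chr12:85473710-85473889, plus strand) and Nr4a1 (chr15:101266666-101266845, plus strand), which were among the members with the widest range across the libraries.
Fos: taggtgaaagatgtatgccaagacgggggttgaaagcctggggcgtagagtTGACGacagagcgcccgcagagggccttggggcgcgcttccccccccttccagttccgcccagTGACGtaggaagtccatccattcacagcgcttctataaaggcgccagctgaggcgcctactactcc
Nr4a1: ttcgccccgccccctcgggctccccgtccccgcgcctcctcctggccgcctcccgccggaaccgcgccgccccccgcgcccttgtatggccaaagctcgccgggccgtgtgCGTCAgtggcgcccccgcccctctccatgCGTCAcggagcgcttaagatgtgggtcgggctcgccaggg
Capitals mark the full CRE, TGACGTCA, in the 4 members that held it in the window searched: Dusp1 (chr17:26508520-26508652, minus strand), Btg2 (chr1:134079156-134079335, minus strand), Maff (chr15:79347340-79347519, plus strand) and Ppp1r15a (chr7:45526269-45526448, minus strand).
Dusp1: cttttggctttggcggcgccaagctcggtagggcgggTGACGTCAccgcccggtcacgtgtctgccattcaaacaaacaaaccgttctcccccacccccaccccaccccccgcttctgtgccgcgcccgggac
Btg2: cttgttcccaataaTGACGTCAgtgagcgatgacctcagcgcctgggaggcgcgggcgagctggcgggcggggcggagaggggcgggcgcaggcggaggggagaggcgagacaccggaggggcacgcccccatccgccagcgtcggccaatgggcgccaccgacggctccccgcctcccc
Maff: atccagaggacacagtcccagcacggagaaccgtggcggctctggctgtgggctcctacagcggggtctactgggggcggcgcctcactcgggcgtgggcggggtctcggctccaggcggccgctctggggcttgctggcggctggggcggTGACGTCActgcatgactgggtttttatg
Ppp1r15a: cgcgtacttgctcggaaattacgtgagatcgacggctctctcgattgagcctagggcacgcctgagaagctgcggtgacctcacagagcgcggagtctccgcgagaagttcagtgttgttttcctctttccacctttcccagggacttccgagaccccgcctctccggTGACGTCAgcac
Capitals mark CArG boxes in the 2 members that held one in the window searched: Dusp5 (chr19:53528965-53529108, plus strand), where a pair stood end to end, and Zfp36 (chr7:28379256-28379408, minus strand).
Dusp5: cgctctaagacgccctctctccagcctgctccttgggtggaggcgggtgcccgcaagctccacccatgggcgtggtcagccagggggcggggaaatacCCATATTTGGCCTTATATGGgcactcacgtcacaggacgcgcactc
Zfp36: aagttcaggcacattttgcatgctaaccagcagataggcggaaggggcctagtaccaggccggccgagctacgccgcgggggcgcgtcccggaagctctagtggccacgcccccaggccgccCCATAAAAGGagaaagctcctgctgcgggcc
Capitals mark the heat shock core, GAANNTTC, in the adjacent genes Hspa1a (chr17:34972157-34972336, minus strand) and Hspa1b (chr17:34959239-34959418, minus strand), whose stretches differed by 1 base (99.4% identity).
Hspa1a: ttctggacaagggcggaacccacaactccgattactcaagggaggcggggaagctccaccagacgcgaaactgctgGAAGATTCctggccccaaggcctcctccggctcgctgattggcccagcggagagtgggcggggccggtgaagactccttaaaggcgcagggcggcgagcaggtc
Hspa1b: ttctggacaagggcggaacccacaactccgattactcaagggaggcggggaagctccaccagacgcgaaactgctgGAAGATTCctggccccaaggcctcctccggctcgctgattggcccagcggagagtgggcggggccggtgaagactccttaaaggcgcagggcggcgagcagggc

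Each motif was searched on both strands of the whole 300-base entry, and the same search was made in the entries of 7966 genes that passed the count minimum. TGACGTCA was found in 4 of 32 members (12.5%) and in 3.45% of all entries, and the CArG box in 2 members (6.25%) and 1.21%. The heat shock core was found in 4 members (12.5%), the other 2 being Fosl2 and Jun, and in 5.81% of entries. An Egr motif, GCGNGGGCG, was found in 11 members (34.4%) and 10.6% of entries, and TATAAA in 7 (21.9%) and 6.36%. An AP-1 motif, TGANTCA, was found in Zfp36l1 and Csrnp1 (6.25% against 4.41%), and the kappa B stretch GGGACTTTC in 0 members against 0.452% of entries. TGACG was found in 17 members (53.1%) and 34.0% of entries. It was searched for after the other matches had been seen, and every TGACGTCA contains it. These shares describe letters in a window and no factor's binding.

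The libraries held 23621743 to 29778717 counts, of which mitochondrial genes took 16.6% to 17.6% in all but the resting ΔIRIS library, where they took 22.7%. Levels below are counts, or CPM, which are counts divided by library size after scaling with the TMM method of edgeR. A gene is called higher or lower at 2-fold on the log2(CPM + 0.5) scale, and the calls are set beside those over the 11286 genes whose counts averaged 50 or more. Of the members, 38 reached that mean, the exception being Ier3. Folds and log2 ratios of single genes are of plain CPM, with a 95% Clopper-Pearson interval that covers counting error only and leaves out variation between mice.

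The members as a group were far more abundant in resting than in LPS-activated cells. Together they took 4530 CPM in resting ΔleftPAL cells and 916 CPM after LPS, and 6890 CPM in resting ΔIRIS cells and 791 CPM after LPS. As a share of all counts this was 0.468% and 0.0889% in ΔleftPAL and 0.698% and 0.0779% in ΔIRIS. The resting libraries thus differed from each other by more than the LPS ones did, with resting ΔIRIS the highest of the 4.

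**Figure D1:**
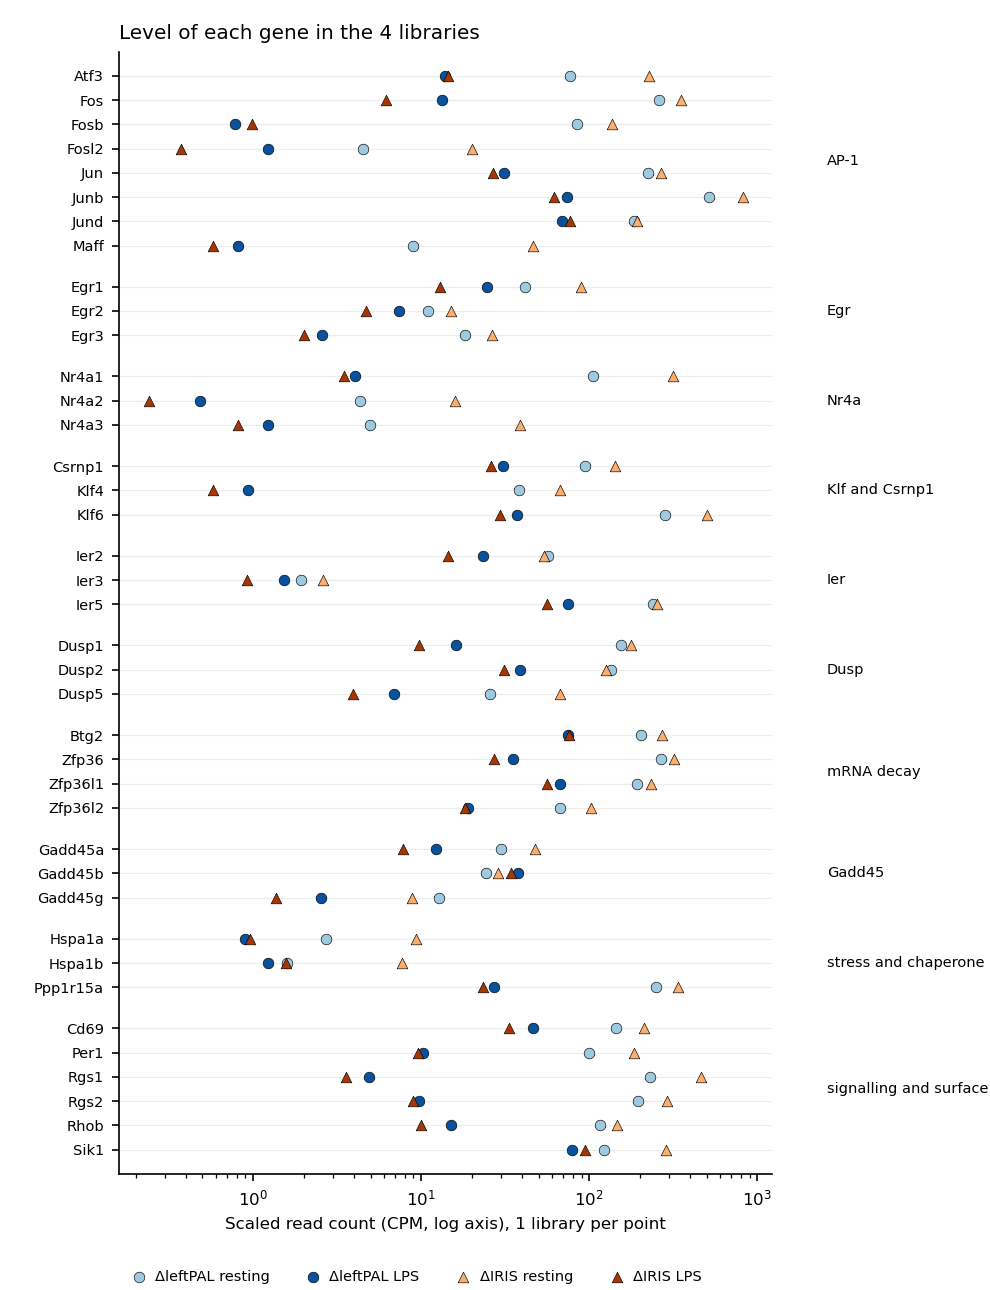
Scaled read count (CPM, log axis) of each of the 39 genes in the 4 libraries, 1 point per library, grouped by role. For all genes except Gadd45b the pair of resting points (pale) lies to the right of the pair of LPS points (dark), which held for 37.1% of all genes tested, and the resting ΔIRIS point is most often the highest.

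In ΔleftPAL cells 33 of the 39 members were at least 2-fold lower after LPS and 0 were higher, where 15.5% of all genes tested were lower and 20.1% higher. In ΔIRIS cells 38 were lower and 0 higher, beside 17.3% and 21.6% of all genes. The members' median log2 ratio (CPM + 0.5) was −1.81 in ΔleftPAL and −3.42 in ΔIRIS, against 0.12 and 0.13 over all genes tested. All 33 members lower in ΔleftPAL were also lower in ΔIRIS, which held for 13.1% of all genes. A fall of 8-fold or more on the CPM + 0.5 scale was seen for 9 members in ΔleftPAL (2.64% of all genes) and for 21 in ΔIRIS (3.76%). Both comparisons are within a genotype and share no library. An additive fit of genotype and LPS on the 4 libraries (edgeR's quasi-likelihood test with Benjamini-Hochberg adjustment over all genes, threshold 0.05), chosen after seeing the data, called 36 of the 38 members tested lower and 1, Gadd45b, higher, beside 27.9% and 36.4% of all genes. Hspa1b did not pass. The spread in this fit rests on 1 residual degree of freedom and takes as error any difference in response between the genotypes.

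Bulk RNA from these cells cannot tell fewer cells of a type from less RNA per cell, and summed markers of several cell types moved with LPS. The sum of 8 B cell markers went from 4911 to 2554 CPM in ΔleftPAL and from 4065 to 2604 CPM in ΔIRIS, with 0 of the 8 at 0 counts. Of the 8, 4 and 2 were called lower and 0 higher, where 15.5% and 17.3% of all genes were lower. The fall was uneven: Cr2 went from 798 to 179 CPM and from 515 to 85.8 CPM, and Ms4a1 from 946 to 748 CPM and from 915 to 916 CPM. The sum of 8 myeloid markers went from 373 to 14.5 CPM and from 485 to 20.1 CPM, with S100a8 and S100a9 at 0 in both LPS libraries, and 8 and 7 of the 8 were called lower. The sum of 6 erythroid markers went from 41305 to 58.2 CPM and from 28663 to 124 CPM, and that of 3 platelet markers from 10.9 to 1.41 CPM and from 30.2 to 0.409 CPM. For 6 T cell markers the sums were 20.5 to 0.111 CPM and 25.5 to 0.102 CPM, with 4 of 6 at 0 in each LPS library, where 3 counts would be 0.111 and 0.102 CPM. NK cell (4 genes), plasmacytoid dendritic cell (2) and stromal markers (3) summed to 5.12, 32.3 and 182 CPM in resting ΔleftPAL cells and to 0.148, 22.2 and 80.2 CPM after LPS, and to 1.69, 18.6 and 165 CPM and 0.0682, 24.5 and 73.5 CPM in ΔIRIS. Pecam1 made up nearly all of the stromal sums, at 181 and 80.2 CPM in ΔleftPAL and 164 and 73.5 CPM in ΔIRIS. Col1a1 and Col3a1 were at 0 in both LPS libraries. Of the plasmacytoid dendritic cell markers, Siglech went from 95 counts to 1 in ΔleftPAL and from 76 to 0 in ΔIRIS. Bst2 went from 694 counts to 596 and from 466 to 717. The part of these other cells in the members' fall was not tested.

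The AP-1 genes encode the Fos, Jun, Maf and ATF proteins that pair through leucine zippers to bind DNA, and all 8 were called lower after LPS in both genotypes. With 5 CPM added in place of 0.5, Fosl2 lost its call in ΔleftPAL cells (log2 ratio −0.61). Fos (chromosome 12, 85473890 to 85477273, plus strand) had 6345 counts in the resting ΔleftPAL library, 358 after LPS, 10201 in the resting ΔIRIS library and 180 after LPS. It was 19.5-fold lower after LPS in ΔleftPAL cells (log2 ratio −4.29, interval −4.45 to −4.14) and 57.1-fold lower in ΔIRIS cells (−5.84, −6.06 to −5.62). Its paralogue Fosb had 2072 counts in the resting ΔleftPAL library, 21 after LPS, 3980 in the resting ΔIRIS library and 29 after LPS. Fosb was 109-fold lower after LPS in ΔleftPAL cells (log2 ratio −6.77, interval −7.46 to −6.15) and 138-fold lower in ΔIRIS cells (−7.11, −7.69 to −6.59), and ranked 25th and 28th from the lowest of all genes tested on the CPM + 0.5 scale. These folds rest on 21 and 29 LPS counts. The groups did not overlap for either gene, with both resting libraries far above both LPS libraries. Both resting libraries lay above both LPS ones for 37.1% of all genes tested.

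Of the Jun proteins, which supply the other side of the AP-1 dimer, Junb stood at 515, 73.8, 816 and 62.0 CPM in resting ΔleftPAL, LPS-activated ΔleftPAL, resting ΔIRIS and LPS-activated ΔIRIS cells, an order kept below. Junb was 6.98-fold lower after LPS in ΔleftPAL cells (log2 ratio −2.80, interval −2.87 to −2.73) and 13.2-fold lower in ΔIRIS cells (−3.72, −3.79 to −3.65). Jun went from 5453 counts at rest to 843 after LPS in ΔleftPAL cells and from 7809 to 781 in ΔIRIS cells, with log2 ratios of −2.83 and −3.33. Jund, the Jun gene known to be least dependent on a stimulus, moved least of the 8 AP-1 genes in CPM in ΔleftPAL and in ΔIRIS, from 4516 counts at rest to 1866 after LPS in ΔleftPAL cells and from 5561 to 2260 in ΔIRIS cells. Its ratios were −1.42 (−1.50 to −1.34) and −1.31 (−1.38 to −1.24). In ΔleftPAL with 5 CPM added, Fosl2 moved less than Jund (−0.61 against −1.35). The same held in length-scaled values (TPM) from kallisto (−1.02 against −1.66).

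Fosl2, Atf3 and Maff were the AP-1 genes in which the genotypes stood furthest apart at rest. Atf3, a stress-induced repressor, had 1879 counts in the resting ΔleftPAL library, 375 after LPS, 6596 in the resting ΔIRIS library and 424 after LPS. Its log2 ratio was −2.47 in ΔleftPAL and −3.97 in ΔIRIS, and the LPS libraries were nearly level. Maff, a small Maf protein that lacks a transactivation domain, had 219 counts in the resting ΔleftPAL library, 22 after LPS, 1341 in the resting ΔIRIS library and 17 after LPS. Fosl2 had 110 counts in the resting ΔleftPAL library, 33 after LPS, 583 in the resting ΔIRIS library and 11 after LPS, so its ratio of −5.74 in ΔIRIS (−6.75 to −4.89) rests on few LPS counts.

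Of the Egr genes, zinc finger factors that follow ERK signalling, 1 of 3 was called lower after LPS in ΔleftPAL cells and 3 of 3 in ΔIRIS cells. Egr1 (chromosome 18, 34859823 to 34864984, plus strand) had 1013 counts in the resting ΔleftPAL library, 666 after LPS, 2586 in the resting ΔIRIS library and 379 after LPS. It was 1.68-fold lower in ΔleftPAL (log2 ratio −0.75, interval −0.89 to −0.60), which is not a call, and 6.88-fold lower in ΔIRIS (log2 ratio −2.78, interval −2.94 to −2.63). Egr2 went from 269 counts at rest to 198 after LPS in ΔleftPAL cells and from 438 to 138 in ΔIRIS cells, with log2 ratios of −0.58 and −1.68, and it too was called in ΔIRIS and not in ΔleftPAL. Egr3 was called in both, from 445 counts at rest to 69 after LPS in ΔleftPAL cells and from 767 to 59 in ΔIRIS cells (log2 ratios −2.83 and −3.71).

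The Nr4a genes encode orphan nuclear receptors, and Nr4a1 (Nur77) is widely used as a reporter of antigen receptor signalling. Nr4a1 (chromosome 15, 101266846 to 101274792, plus strand), whose TGACG pair is printed above, had 2558 counts in the resting ΔleftPAL library, 109 after LPS, 9186 in the resting ΔIRIS library and 102 after LPS. It was 25.9-fold lower after LPS in ΔleftPAL cells (log2 ratio −4.69, interval −4.98 to −4.42) and 90.8-fold lower in ΔIRIS cells (−6.50, −6.80 to −6.22). Nr4a2 had 105 counts in the resting ΔleftPAL library, 13 after LPS, 463 in the resting ΔIRIS library and 7 after LPS, and Nr4a3 had 122 counts in the resting ΔleftPAL library, 33 after LPS, 1119 in the resting ΔIRIS library and 24 after LPS. All 3 were high in resting ΔIRIS, intermediate in resting ΔleftPAL and lowest in both LPS libraries. Ratios of Nr4a2 after LPS rest on 13 and 7 counts, and its intervals were −4.11 to −2.32 in ΔleftPAL and −7.38 to −5.00 in ΔIRIS.

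Klf4 and Klf6 are zinc finger factors of the Krüppel family, of which Klf4 restrains B cell proliferation, and Csrnp1 is a nuclear protein induced by axin. Klf4 had 928 counts in the resting ΔleftPAL library, 25 after LPS, 1960 in the resting ΔIRIS library and 17 after LPS, and was 40.9-fold lower after LPS in ΔleftPAL cells (log2 ratio −5.36, interval −5.99 to −4.78) and 116-fold lower in ΔIRIS cells (−6.86, −7.64 to −6.18). The 17 LPS counts of Klf4 in ΔIRIS were 0.567 of the count estimated by kallisto, so the size of that fold is uncertain. Klf6 stood at 282, 37.2, 501 and 29.6 CPM in the same order, with log2 ratios of −2.92 and −4.08. Csrnp1 moved less, from 2313 counts at rest to 826 after LPS in ΔleftPAL cells and from 4123 to 767 in ΔIRIS cells (−1.63 and −2.44).

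The Ier genes are small early response genes with little shared function, and 2 of the 3 were called lower in ΔleftPAL and all 3 in ΔIRIS. Ier2 went from 1386 counts at rest to 625 after LPS in ΔleftPAL cells and from 1554 to 422 in ΔIRIS cells, and Ier5 from 5869 counts at rest to 2016 after LPS in ΔleftPAL cells and from 7368 to 1645 in ΔIRIS cells. Their log2 ratios were −1.29 and −1.89 for Ier2 and −1.68 and −2.18 for Ier5. Ier3 had the lowest mean count of the members, with 47 counts in the resting ΔleftPAL library, 41 after LPS, 76 in the resting ΔIRIS library and 27 after LPS, and its ΔleftPAL interval of −0.98 to 0.30 held 0. With 5 CPM added, its call in ΔIRIS was lost (log2 ratio −0.36).

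The Dusp genes encode phosphatases that switch off MAP kinases in the nucleus, and all 3 were lower after LPS in both genotypes. Dusp1 (chromosome 17, 26505590 to 26508519, minus strand), with its CRE upstream, had 3767 counts in the resting ΔleftPAL library, 435 after LPS, 5125 in the resting ΔIRIS library and 285 after LPS, and was 9.55-fold lower after LPS in ΔleftPAL cells (log2 ratio −3.26, interval −3.40 to −3.11) and 18.1-fold lower in ΔIRIS cells (−4.18, −4.36 to −4.01). Dusp2, a phosphatase of lymphoid cells, went from 3303 counts at rest to 1050 after LPS in ΔleftPAL cells and from 3634 to 915 in ΔIRIS cells, with nearly equal log2 ratios of −1.79 and −2.0. Dusp5, which acts on ERK and carries the CArG pair, had 624 counts in the resting ΔleftPAL library, 186 after LPS, 1944 in the resting ΔIRIS library and 115 after LPS, and its ratios of −1.89 and −4.09 stood further apart.

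Zfp36, Zfp36l1 and Zfp36l2 bind AU-rich elements and send transcripts to decay, and Btg2 recruits the deadenylase that shortens their tails. All 4 were lower after LPS in both genotypes. Zfp36 (tristetraprolin) went from 6505 counts at rest to 946 after LPS in ΔleftPAL cells and from 9277 to 798 in ΔIRIS cells. Zfp36l1 went from 4707 counts at rest to 1799 after LPS in ΔleftPAL cells and from 6749 to 1639 in ΔIRIS cells, and Zfp36l2 from 1640 counts at rest to 511 after LPS in ΔleftPAL cells and from 2985 to 531 in ΔIRIS cells. Zfp36 had the larger fall of the family, with log2 ratios of −2.92 and −3.55 against −1.53 and −2.05 for Zfp36l1 and −1.82 and −2.50 for Zfp36l2. Btg2, which also holds back the cell cycle, had 4976 counts in the resting ΔleftPAL library, 2003 after LPS, 7918 in the resting ΔIRIS library and 2220 after LPS, with log2 ratios of −1.45 and −1.85.

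Gadd45b, of a family of small stress proteins that bind MAP kinase kinases, was the exception among the 39 in gene counts. Gadd45b (chromosome 10, 80930091 to 80932204, plus strand) had 596 counts in the resting ΔleftPAL library, 1010 after LPS, 833 in the resting ΔIRIS library and 1006 after LPS. It was 1.54-fold higher after LPS in ΔleftPAL (log2 ratio 0.62, interval 0.47 to 0.77) and 1.20-fold higher in ΔIRIS (log2 ratio 0.26, interval 0.13 to 0.39), short of a call in either. The log2 ratio in ΔIRIS was 0.22 to 0.26 under the scalings and added CPM tried on gene counts and 0.40 in kallisto estimated counts. In kallisto TPM (TPM + 0.5) it was just below 0, where the median over all genes was −0.18, and it was 0.39 in ΔleftPAL, where that median was −0.20. In CPM both LPS libraries lay above both resting ones. Its paralogues went the other way: Gadd45a fell from 727 counts at rest to 332 after LPS in ΔleftPAL cells and from 1389 to 229 in ΔIRIS cells, and Gadd45g from 314 counts at rest to 68 after LPS in ΔleftPAL cells and from 255 to 40 in ΔIRIS cells. Their log2 ratios were −1.27 and −2.61 for Gadd45a and −2.35 and −2.68 for Gadd45g.

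Ppp1r15a (GADD34), which brings a phosphatase to eIF2α and restores translation after stress, had 6106 counts in the resting ΔleftPAL library, 727 after LPS, 9845 in the resting ΔIRIS library and 685 after LPS. It was 9.26-fold lower after LPS in ΔleftPAL cells (log2 ratio −3.21, interval −3.32 to −3.10) and 14.5-fold lower in ΔIRIS cells (−3.86, −3.97 to −3.75). Hspa1a and Hspa1b encode the inducible Hsp70 from near-identical copies, so reads may be split between them, and their sum is the safer value. Summed, they had 105 counts in resting ΔleftPAL cells, 57 after LPS, 495 in resting ΔIRIS cells and 74 after LPS. The sum was 2.03-fold lower after LPS in ΔleftPAL (log2 ratio −1.02, interval −1.51 to −0.54) and 6.74-fold lower in ΔIRIS (−2.75, −3.13 to −2.40). On the CPM + 0.5 scale the sum was at −0.88 in ΔleftPAL, short of a call, whereas Hspa1a alone is among the 33 members called there. Singly, Hspa1b was not called in ΔleftPAL, where its interval of −1.10 to 0.32 held 0. In kallisto estimated counts its ratio there was above 0, at 0.25 on the CPM + 0.5 scale.

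The last members act at the membrane, in signalling or in the clock. Rgs1 (chromosome 1, 144242296 to 144249242, minus strand) and Rgs2 shorten signals from G protein-coupled receptors, and Rgs1 dampens the response of B cells to chemokines. Rgs1 had 5600 counts in the resting ΔleftPAL library, 131 after LPS, 13443 in the resting ΔIRIS library and 105 after LPS, and was 47.2-fold lower after LPS in ΔleftPAL cells (log2 ratio −5.56, interval −5.82 to −5.31) and 129-fold lower in ΔIRIS cells (−7.01, −7.30 to −6.74). Its gene record is a single block of 6947 bases, so that intronic reads were counted in it. Rgs2 had 4780 counts in the resting ΔleftPAL library, 260 after LPS, 8385 in the resting ΔIRIS library and 262 after LPS, with log2 ratios of −4.34 and −5.01.

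Cd69, the early activation antigen that keeps lymphocytes in tissue, had 3535 counts in the resting ΔleftPAL library, 1241 after LPS, 6131 in the resting ΔIRIS library and 971 after LPS, and its log2 ratios were −1.65 and −2.67. Per1, a repressor of the circadian clock, went from 2420 counts at rest to 275 after LPS in ΔleftPAL cells and from 5336 to 281 in ΔIRIS cells. Rhob, an endosomal GTPase, went from 2822 counts at rest to 403 after LPS in ΔleftPAL cells and from 4255 to 293 in ΔIRIS cells. Both lay lower in each LPS library than in each resting one, as did 37.1% of all genes tested. Their log2 ratios were −3.28 and −4.26 for Per1 and −2.95 and −3.87 for Rhob. Sik1, a kinase that restrains CREB coactivators, had 2994 counts in the resting ΔleftPAL library, 2120 after LPS, 8309 in the resting ΔIRIS library and 2774 after LPS. It was 1.56-fold lower in ΔleftPAL, short of a call, and 3.02-fold lower in ΔIRIS.

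**Figure D2:**
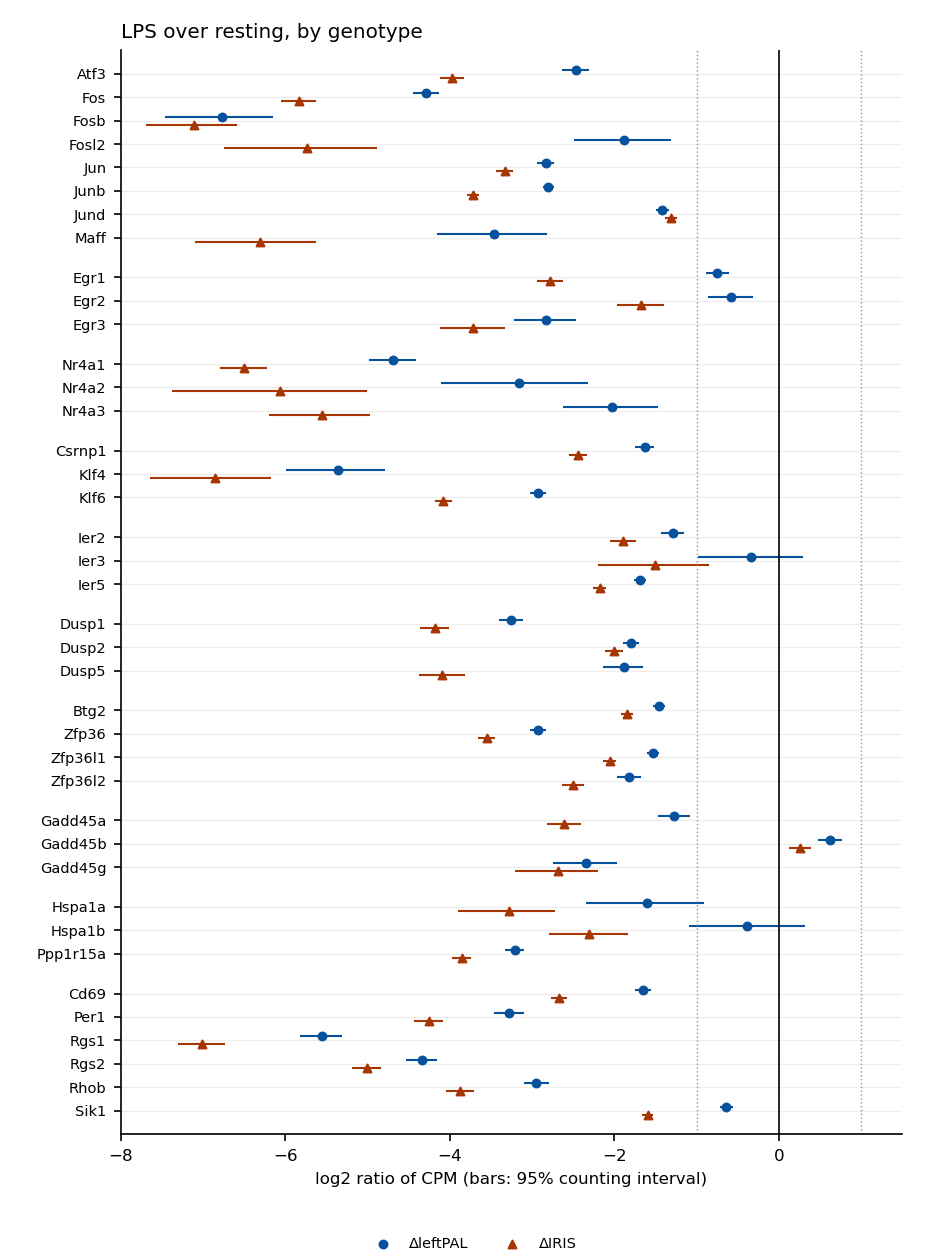
log2 ratio of CPM, LPS over resting, for each gene in ΔleftPAL (circles) and ΔIRIS (triangles), with 95% counting intervals as bars and dotted lines at 2-fold. All genes but Gadd45b lie left of 0, and the ΔIRIS point lies left of the ΔleftPAL point for all genes but Jund.

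The 6 members not called lower in ΔleftPAL were Egr1, Egr2, Ier3, Gadd45b, Hspa1b and Sik1, and all but Gadd45b were called in ΔIRIS. The LPS ratio was lower in ΔIRIS than in ΔleftPAL for 38 members, the exception being Jund, with a median difference of −0.96 on the log2 scale. On the CPM + 0.5 scale it was lower for 38 members and 49.0% of all genes tested, with medians of −0.91 and 0.01. On that scale the gap was −3.21 for Nr4a3, −3.02 for Fosl2, −2.59 for Maff and −2.19 for Nr4a2, from 24, 11, 17 and 7 LPS counts in ΔIRIS. The order of these gaps moves with the CPM added, and with 5 CPM that of Egr1 (−1.74) exceeds that of Fosl2 (−1.61). With 5 CPM the gap of Gadd45g also lay above 0, at 0.13, beside that of Jund (0.10). For no member did the intervals lie on opposite sides of 0. By arithmetic the gap is the genotype ratio after LPS less the one at rest, and the resting part was the larger of the pair for each of these 4 genes.

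Between the resting libraries, 12 members were called higher in ΔIRIS and 0 lower, where 1.83% of all genes tested were higher and 1.02% lower. The median log2 ratio (CPM + 0.5) was 0.58 over the members and 0.00 over all genes. By plain counts 34 intervals lay above 0, as for 30.3% of all genes, and 2 below (27.0%), those of Dusp2 (−0.11) and Gadd45g (−0.55), and those of Jund, Ier2 and Ier3 held 0. Of the 12, 9 ranked among the 100 genes with the highest ratio: Nr4a3, Maff, Fosl2, Hspa1b, Nr4a2, Hspa1a, Nr4a1, Atf3 and Dusp5. Egr1, Sik1 and Rgs1 were the others called.

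All 3 Nr4a receptors were among them, though Nr4a2 was not called in kallisto TPM. Nr4a3 had 122 counts in ΔleftPAL and 1119 in ΔIRIS at rest and was 7.71-fold higher (log2 ratio 2.95, interval 2.68 to 3.23), and its ratio on the CPM + 0.5 scale was the 6th highest of all genes tested. Nr4a1 had 2558 counts in ΔleftPAL and 9186 in ΔIRIS and was 3.02-fold higher (log2 ratio 1.59, interval 1.53 to 1.66), from the largest counts of the trio. Nr4a2 had 105 counts in ΔleftPAL and 463 in ΔIRIS (log2 ratio 1.89, interval 1.58 to 2.21).

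Of the AP-1 genes, Maff was 5.14-fold higher in resting ΔIRIS (log2 ratio 2.36, interval 2.16 to 2.58), Fosl2 4.45-fold higher (log2 ratio 2.15, interval 1.86 to 2.46) and Atf3 2.95-fold higher (log2 ratio 1.56, interval 1.49 to 1.64). The major AP-1 genes differed less: Fos by 0.43, Fosb by 0.69, Jun by 0.27 and Junb by 0.66 on the log2 scale. Jund was level, at 0.05 (−0.01 to 0.11). Of the 4 genes with the full CRE, Dusp1 was at 0.19, Btg2 at 0.42 and Ppp1r15a at 0.44, and Maff at 2.36.

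Hsp70 counts were also higher in the resting ΔIRIS library, Hspa1a with 66 counts in ΔleftPAL and 270 in ΔIRIS and Hspa1b with 39 counts in ΔleftPAL and 225 in ΔIRIS. Their sum was 3.96-fold higher (log2 ratio 1.99, interval 1.68 to 2.30). With 5 CPM added, Hspa1a was at 0.89 and Hspa1b at 0.95, both short of a call. Dusp5 was 2.62-fold higher (log2 ratio 1.39, interval 1.26 to 1.52), while Dusp1 was at 0.19 and Dusp2 at −0.11. Egr1 was 2.14-fold higher (log2 ratio 1.10, interval 1.00 to 1.21), Sik1 2.33-fold higher (log2 ratio 1.22, interval 1.16 to 1.28) and Rgs1 2.02-fold higher (log2 ratio 1.01, interval 0.97 to 1.06). Rgs1 lies so close to the threshold that scaling by total counts ended its call.

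The members nearest to a call at rest were Per1 (0.89), Klf4 (0.83) and Klf6 (0.83), with Gadd45a further off (0.68). Cd69 was at 0.54, Rgs2 at 0.56 and Zfp36l2 at 0.61, against 0.26 for Zfp36 and 0.27 for Zfp36l1. Gadd45g was the member that lay clearly the other way, with 314 counts in ΔleftPAL and 255 in ΔIRIS (log2 ratio −0.55, interval −0.80 to −0.31).

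Other features of these resting libraries differed as well. The mitochondrial share was 16.6% in ΔleftPAL and 22.7% in ΔIRIS. The 3 platelet markers were all called higher in ΔIRIS, with sums of 10.9 and 30.2 CPM, and the myeloid sum was 373 against 485 CPM with 2 of 8 markers called lower. The erythroid sum was 41305 against 28663 CPM and the B cell sum 4911 against 4065 CPM. The NK cell sum was 5.12 against 1.69 CPM, with 2 of 4 markers called lower, the T cell sum 20.5 against 25.5 CPM, with 3 of 6 called lower, and the plasmacytoid dendritic cell sum 32.3 against 18.6 CPM. The part of any of these in the resting difference was not tested, and with 1 library per genotype at rest the genotype and the preparation of the library cannot be told apart.

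**Figure D3:**
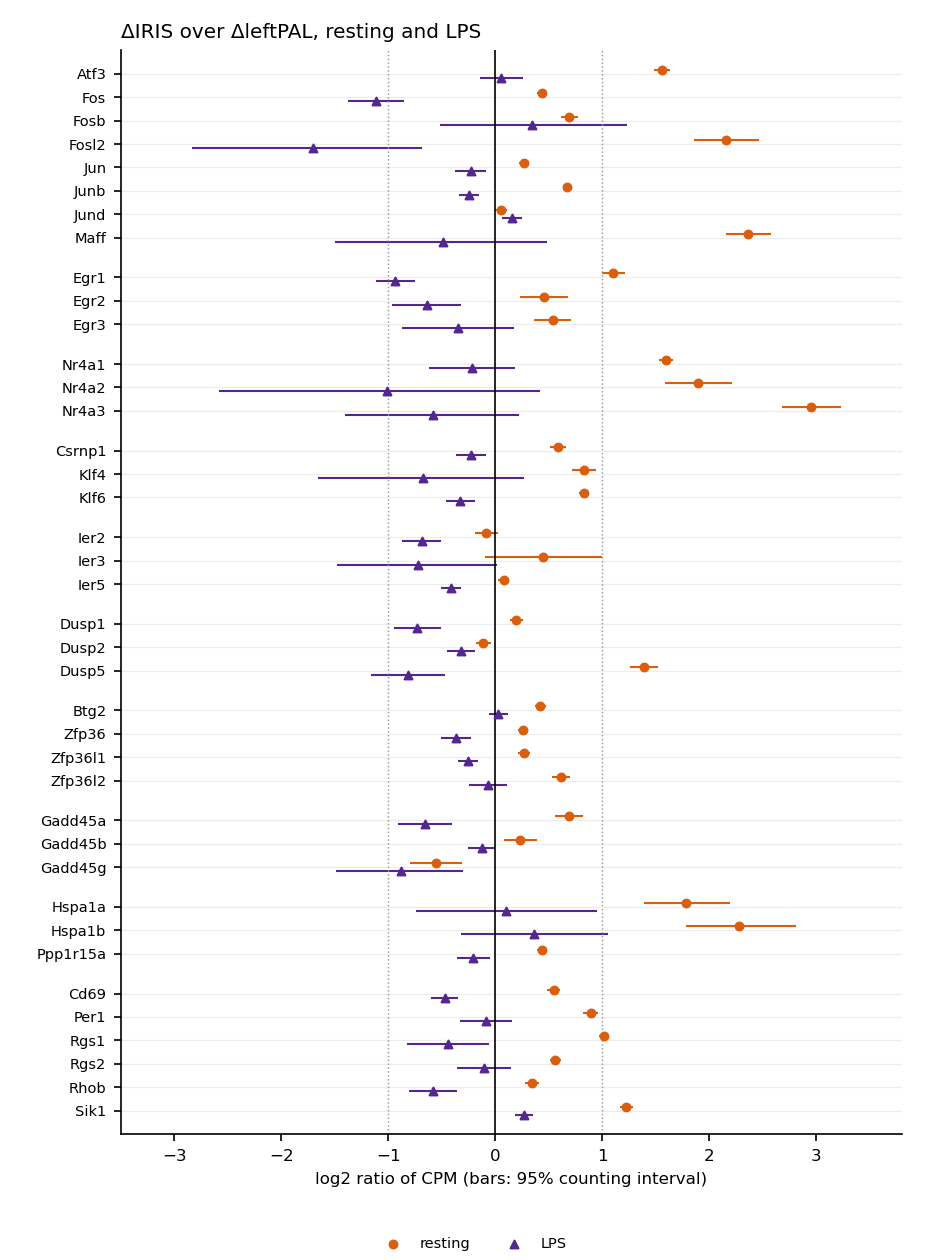
log2 ratio of CPM, ΔIRIS over ΔleftPAL, for each gene at rest (circles) and after LPS (triangles), with 95% counting intervals as bars and dotted lines at 2-fold. The resting points lie mostly right of 0, with 12 genes called higher, whereas most LPS points lie left of 0 and closer to it.

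After LPS the genotypes were closer. No member was called higher in ΔIRIS and 1, Fos, was called lower, beside 0.567% and 1.41% of all genes tested. The log2 ratio of Fos was −1.05 on the CPM + 0.5 scale. It was −0.99 in kallisto estimated counts, a similar size just short of a call, and −0.72 with 5 CPM added. The median log2 ratio (CPM + 0.5) was −0.32 over the members and 0.03 over all genes, and 32 of the 39 lay below 0 (29 in kallisto estimated counts), as did 44.7% of all genes. Of the counting intervals 22 lay below 0, as for 19.4% of all genes, 15 held 0 and 2 lay above it, those of Jund (0.15, 0.07 to 0.24) and Sik1 (0.27, 0.18 to 0.35). Of the markers, 4 of 6 erythroid ones (summed 58.2 against 124 CPM) and 1 of 8 myeloid ones were called higher in ΔIRIS after LPS, and 1 of 8 B cell and 1 of 3 platelet ones lower, and their part was not tested.

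Fos had 358 counts in ΔleftPAL and 180 in ΔIRIS after LPS (log2 ratio −1.11, interval −1.38 to −0.85), the reverse of its order at rest. Egr1, with 666 counts in ΔleftPAL and 379 in ΔIRIS (log2 ratio −0.94, interval −1.12 to −0.75), fell just short of a call, and its order was likewise the reverse of that at rest. Fosl2 had a plain ratio of −1.71, but from 33 counts in ΔleftPAL and 11 in ΔIRIS, which falls short of a call once 0.5 CPM is added. Dusp5 (−0.82), Dusp1 (−0.73), Ier2 (−0.69), Gadd45a (−0.66) and Egr2 (−0.64) had intervals wholly below 0. Those of Nr4a1, Nr4a2, Nr4a3, Atf3, Klf4, Maff and both Hspa1 genes, which had been apart at rest, held 0. Except for Nr4a1 and Atf3, these intervals rest on few counts in ΔleftPAL and ΔIRIS, such as 13 and 7 for Nr4a2 and 22 and 17 for Maff. They were wide, from −2.58 to 0.42 for Nr4a2 and −1.50 to 0.49 for Maff, and cannot show that the genotypes were level.

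**Figure D4:**
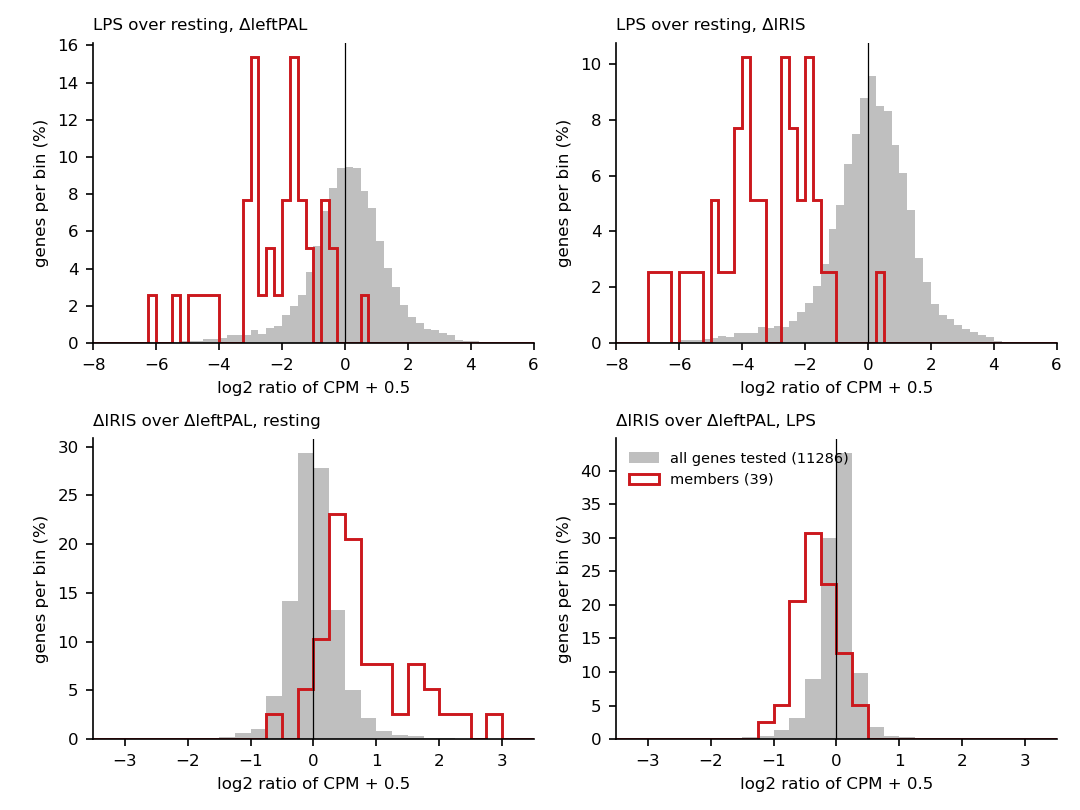
Share of genes per bin of the log2 ratio (CPM + 0.5) for the 39 members (red outline) and for the 11286 genes tested (grey), in each of the 4 comparisons. The members lie to the left of the grey in both LPS comparisons, to the right of it at rest, with medians of 0.58 and 0.00, and slightly to the left after LPS, with medians of −0.32 and 0.03.

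Levels of different genes can be compared only per length, for which the TPM values of the transcript table, scaled by transcript length and by library, were summed by gene. Summed over the members they came to 2958 TPM in resting ΔleftPAL, 477 TPM after LPS, 4297 TPM in resting ΔIRIS and 386 TPM after LPS. Junb led in both resting libraries, at 397, 48.4, 615 and 39.3 TPM in the same order, and Rgs1 was next, at 225, 3.61, 483 and 2.28 TPM. Zfp36 (209, 23.2, 246 and 17.3 TPM) and Fos (191, 8.94, 249.5 and 4.14 TPM) followed. After LPS the order changed: Junb still led, but Gadd45b (28.5, 37.4, 33.1 and 33.0 TPM) was next, ahead of Dusp2 (140.0, 33.7, 124 and 26.8 TPM) and Cd69 (125, 33.4, 179.6 and 23.4 TPM) in ΔleftPAL. Hspa1b, Fosl2, Hspa1a and Ier3 stood at the bottom at rest, at 0.594 to 2.58 TPM in ΔleftPAL and 3.12 to 4.54 TPM in ΔIRIS.

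**Figure D5:**
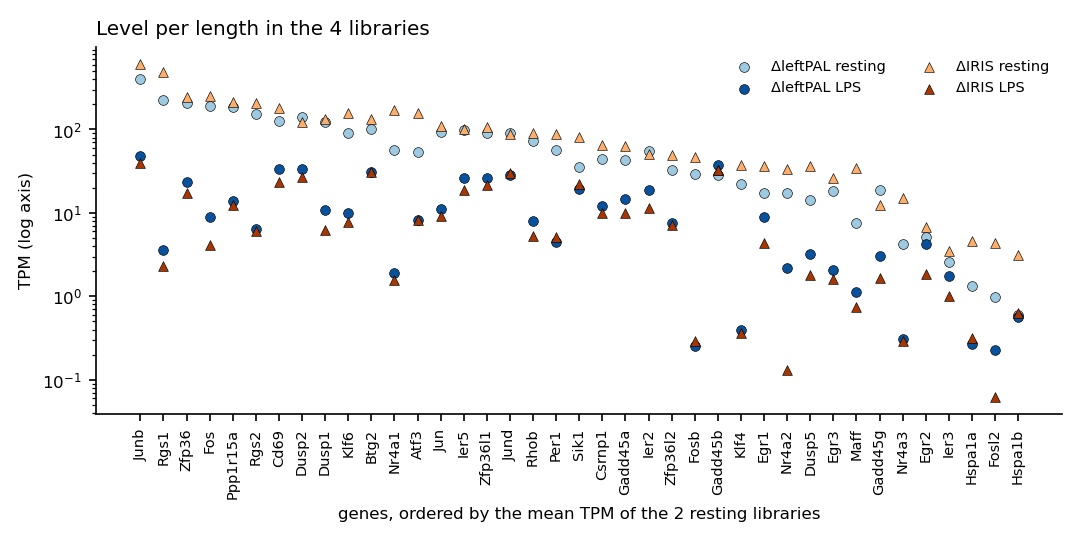
Length-scaled level (TPM, log axis) of each gene in the 4 libraries, ordered by the mean of the resting libraries. Levels at rest span from Junb, at 397 and 615 TPM, to Hspa1b, at 0.594 and 3.12 TPM, and the LPS points lie below the resting points for most genes but above or level with them for Gadd45b.

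Some of these TPM values rest on short transcripts. For Nr4a2 a processed transcript of 182 bases took 85.8% of the gene's TPM in resting ΔleftPAL cells from 11 estimated counts, and 0 in LPS-activated ΔIRIS cells, so its TPM of 2.18 after LPS in ΔleftPAL against 0.131 in ΔIRIS is not matched by its 13 and 7 gene counts. Rgs1 likewise drew 42.5% to 54.9% of its TPM from a retained intron transcript of 414 bases. Fosb, Jun, Junb and Nr4a1 each had 1 transcript in the table and are free of this. Fos, Dusp1 and Dusp2 drew 71.3% to 85.9%, 60.5% to 69.1% and 74.9% to 79.4% of their TPM from their main protein-coding transcript over the 4 libraries. Gene counts of Zfp36l2 were 0.76 to 0.79 of the kallisto estimates, and those of Maff were 0.449 and 0.459 of them after LPS. In LPS-activated ΔIRIS cells those of Klf4 were 0.567 and those of Nr4a2 0.636 of the estimates.

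Further genes of the same pathways were taken from lists of known primary response genes, of the MAP kinase, SRF and CREB pathway, of bZIP partners and of the heat shock response. Of 29 tested primary response genes outside the 39, 13 were lower and 3 higher after LPS in ΔleftPAL, and 19 lower and 2 higher in ΔIRIS, with median log2 ratios of −0.86 and −1.93. The shares over all genes, given above, were 15.5% and 20.1% in ΔleftPAL and 17.3% and 21.6% in ΔIRIS. Btg1, an antiproliferative gene, stood at 1047, 198, 1399 and 144 CPM in the order used above, and Klf2, a factor of quiescent lymphocytes, at 179, 12.6, 161 and 21.0 CPM. Mcl1, a survival factor, was at 538, 509.9, 571 and 536 CPM. At rest 7 of the 29 were higher in ΔIRIS and 0 lower, beside 1.83% and 1.02% of all genes, and Plk2, a kinase induced by stress, had the largest ratio, at 67.7, 12.7, 272 and 7.06 CPM.

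Of 24 genes of the pathway that signals to the members, which encode kinases, Ras proteins, SRF with its cofactors and Creb1, 3 were lower and 2 higher after LPS in ΔleftPAL and 5 lower and 2 higher in ΔIRIS, and 0 were called between the genotypes in either state. Over all genes 15.5% and 17.3% were lower and 20.1% and 21.6% higher after LPS, and 0.567% to 1.83% were called in each direction between the genotypes. Elk4, an SRF cofactor, stood at 126, 135, 142 and 122 CPM. Map2k6 and Rps6ka5, kinases linked to p38, had the largest mean LPS ratios, at 8.02, 3.45, 11.4 and 2.97 CPM and 23.4, 9.35, 27.8 and 9.72 CPM. Of 11 tested bZIP partners 5 were lower and 1 higher after LPS in each genotype, and 2 were higher in resting ΔIRIS. Mafk, a small Maf protein like Maff, stood at 96.9, 29.1, 227 and 23.5 CPM, while Atf4 stood at 249, 229.9, 379 and 237 CPM. Maf, which macrophages also use, stood at 18.1, 0.408, 37.2 and 0.205 CPM.

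Hspa8 and Hsp90aa1, chaperones that unstressed cells also make, were higher after LPS, in contrast to Hspa1a and Hspa1b. Of 7 tested genes of the heat shock response, 3 were higher after LPS in each genotype, and 0 and 1 lower, with medians of 0.80 and 0.58, where 20.1% and 21.6% of all genes were higher. Hspa8, the constitutive Hsp70, stood at 735, 1915, 839.9 and 2213 CPM, and Hsp90aa1 at 299, 1157, 467 and 1465 CPM. Between the resting libraries 0 of the 7 were called, with a median of 0.39.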

How the data were processed

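The authors sequenced ribosome-depleted, strand-specific total RNA as paired reads, aligned them to mm10 with STAR 2.4.0a (Ensembl release 77) and deposited read counts per gene from featureCounts (Subread 1.4.6-p1). The deposited table counts reads of 41342 named genes, and a row with no gene name (0.0088% to 0.026% of counts) was left out. The authors also deposited estimated counts and TPM from kallisto 0.42.3 for 88198 transcripts, which were summed here by gene. Labels give 1 pool of 4 animals per genotype, whereas the methods describe pooled pairs. A figure legend of the paper gives another number of mice per genotype, all male. Which account applies is not known, and n is taken as 1 library per group. Neither deletion removes a counted gene that would check the genotype labels.

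Gene counts were scaled by TMM (edgeR 4.0.16, R 4.3.3) to CPM, with factors of 0.970 to 1.03. The 4 comparisons were LPS over resting in each genotype and ΔIRIS over ΔleftPAL in each state. Calls used a 2-fold threshold after adding 0.5 CPM. Intervals were 95% Clopper-Pearson intervals of the share of 2 libraries' counts (scipy 1.17.1). PCR copies were not removed by molecular identifiers, so intervals cover counting error only. With a single library per group, no test was made within a comparison. An additive fit of genotype and LPS over the 4 libraries, with genotype as the block, was added after the data were seen (edgeR's quasi-likelihood test, 1 residual degree of freedom). Members and gene lists were chosen with earlier results of these data known. All members may be named, and of each other list those named are the 2 genes with the highest mean CPM and the 2 with the largest mean LPS ratio, of which some are not reported here. Overlapping genes were checked: members shared exonic bases only with genes on the opposite strand, which had at most 65 counts. Alternatives tried were scaling by total counts or by the size factors of DESeq2 1.42.0, kallisto estimated counts and TPM, other count minimums, an added 5 CPM, and the sum of Hspa1a and Hspa1b. The calling steps were tested on simulated data. A comparison of member proteins was planned and not run.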

Additional observations from a re-analysis of the deposited data

How the results depend on the processing

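The labels give no replicate numbers. With genotype as replicate block, an additive edgeR fit added after seeing the data called 36 members lower after LPS, where 33 were 2-fold lower in both genotypes, and 1 higher (Gadd45b) in place of 0. The fit called by adjusted p with no minimum fold, so its counts and the 2-fold ones are unlike measures. Gadd45b had a log2 ratio of 0.44 in it, short of 2-fold. No called member changed direction under any alternative. The members' median LPS log2 ratio in ΔIRIS was −2.39 with 5 CPM added, and that in ΔleftPAL −2.31 in kallisto TPM. After LPS, 3 members were lower in ΔIRIS in TPM (Egr2 and Nr4a2 besides Fos) and 0 with 5 CPM added, and estimated counts called Fosl2 in place of Fos. With 5 CPM added, 29 members (without Fosl2, Hspa1a, Nr4a2 and Nr4a3) were lower after LPS in ΔleftPAL, 36 in ΔIRIS (without Hspa1b and Ier3), and 9 higher in resting ΔIRIS (without Rgs1, Hspa1a and Hspa1b). The last count was 11 with total counts (without Rgs1) and 11 in TPM (without Nr4a2). Over all genes, TPM moved the median LPS ratio from 0.12 to −0.20 in ΔleftPAL and from 0.13 to −0.18 in ΔIRIS, and the share of calls that were higher from 56.5% to 38.8% and from 55.5% to 37.7%. The members' fall is thus measured against a shifted median there, and the cause was not tested. With 5 CPM added, 1072 of all genes in place of 1748 were lower after LPS in ΔleftPAL, 1296 in place of 1955 in ΔIRIS, and 91 in place of 207 higher in resting ΔIRIS. Summing Hspa1a and Hspa1b gave −0.88 after LPS in ΔleftPAL, short of a call, in place of the call of Hspa1a. Depth limits the members with under 50 counts in both LPS libraries: Fosb, Fosl2, Nr4a2, Nr4a3, Klf4, Ier3, Maff, Hspa1a and Hspa1b.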
